A study of Salmo salar with 54 samples.

Results

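Hepatocytes of Atlantic salmon (Salmo salar) exposed for 48 h to 0.1 µM arsenite (AsIII, inorganic trivalent arsenic) were compared with unexposed hepatocytes of the same fish on the arsenite plates. The libraries were chosen by their titles: 6 were labelled AsIII 0.1 uM 48h and 6 AsIII Control 48h, 1 per fish (F1 to F6, here fish 1 to fish 6) in each group, so 12 of the 54 libraries of the series. All 18901 listed genes were described, 18899 of which passed the filter for testing. The other 42 libraries came from arsenite at 1 and 3 µM, from arsenosugar glycerol (AsSug, arsenic bound to a sugar) at 5, 10, 50 and 250 µM, and from the control of the arsenosugar plates. All cells were primary hepatocytes of 6 male fish, freed from the liver by collagenase, grown on 3-dimensional scaffolds in L-15 medium with bovine serum. Each library stands for 1 culture of 1 fish. The labels do not say what the stock was dissolved in or whether control wells received it.

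Arsenite binds the thiol groups of proteins and of glutathione, the main small thiol of the cell. Glutathione is made from glutamate, cysteine and glycine, starting with glutamate-cysteine ligase, and is kept reduced by glutathione reductase with NADPH from the pentose phosphate pathway. Many of these enzymes are targets of the transcription factor NRF2, which thiol-reactive metals and metalloids release from its repressor KEAP1. The liver also methylates arsenite and exports it bound to glutathione.

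Levels are normalised reads, that is, counts per gene scaled by the authors with a size factor per library. The 0.1 µM libraries held 8.79 M reads in fish 1 and 11.8 to 24.0 M in fish 2 to 6, and the controls held 10.6 to 21.8 M. The transcripts were those of hepatocytes. Summed levels of 14 hepatocyte genes, such as those of transferrin, fibrinogen and apolipoproteins, were 547453 to 740999 normalised reads at 0.1 µM and 514495 to 637210 in controls. Summed markers of other cells were far lower in every library. They were 183 to 282 at 0.1 µM and 174 to 252 in controls for 3 endothelial genes, and 459 to 598 at 0.1 µM and 319 to 678 in controls for 4 stellate cell and fibroblast genes. For 3 macrophage and granulocyte genes they were 2619 to 6166 at 0.1 µM and 2532 to 3251 in controls, nearly all of it cd68, since mpeg1.1 averaged 18.1 at 0.1 µM and 15.7 in controls. The erythrocyte marker rhag stood at 263 to 401 at 0.1 µM and 210 to 395 in controls, and the cholangiocyte markers anxa4 and jag1b summed to 2095 to 3556 at 0.1 µM and 2847 to 3527 in controls. No lymphocyte marker was matched. In such bulk libraries, fewer cells of a type and less RNA per cell cannot be told apart.

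The fish 1 library at 0.1 µM stood apart from the other 11. It had the fewest reads, and 39 genes had none in it, against 0 to 8 genes in the others. Its weight, estimated by limma from the residuals of the 24 arsenite libraries, was 0.0591, against 0.535 to 2.24 for the other 23. Over the 300 genes that differ most between fish, each of the 12 libraries correlated best with its own fish, with r = 0.696 for the 0.1 µM library of fish 1 against 0.250 for the next fish. Many results that rest on fish 1 are given with and without it, but not all of them.

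Few transcripts were called as different at 0.1 µM arsenite, and their number depended on the tool and on the fish included (below). At an adjusted p below 0.05 (limma, fish as a term, Benjamini-Hochberg), 2 of 18899 genes rose, 0.0106% of those tested, and none fell, while at an unadjusted p below 0.05 the numbers were 827 higher (4.38%) and 646 lower (3.42%), 7.79% in all. The genes that rose were gclc (GeneID 100196780), the catalytic subunit of glutamate-cysteine ligase, and zgc:114041 (GeneID 106585395), whose function is not annotated in the files. A limma fit of only the 12 libraries compared, with its own estimate of the spread, called no gene. In that fit 605 of 18720 genes were at an unadjusted p below 0.05, 339 higher and 266 lower.

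In fish 1 to 6, gclc stood at 1185, 1521, 1143, 1208, 1139 and 909 normalised reads at 0.1 µM, against 968, 926, 785, 955, 807 and 723 in the controls. It was higher at 0.1 µM in each of the 6 fish, and the groups overlapped only because fish 6 at 0.1 µM was below the controls of fish 1, 2 and 4. The mean was 1184 ± 197 at 0.1 µM and 861 ± 102 in controls (SD, n = 6 fish each), a log2 difference of 0.45 ± 0.075 (SE; limma adjusted p = 0.0438). Without fish 1 the difference was 0.48 (adjusted p = 0.00753), and without any other fish it was 0.40 to 0.48, with adjusted p from 0.0502 without fish 4 to 0.62 without fish 2. A fit of only the 12 libraries compared, with its own estimate of the spread, gave the same difference with an adjusted p of 0.862, edgeR gave 0.147, and DESeq2 gave 2.2e-05.

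zgc:114041 is a low gene. It stood at 9.80, 14.98, 16.1, 9.89, 13.3 and 11.6 normalised reads at 0.1 µM, against 6.47, 4.601, 5.29, 9.04, 4.94 and 4.65 in controls, and every 0.1 µM value was above every control value. Its log2 difference was 1.01 ± 0.16 (limma adjusted p = 0.0438) and rested on 89 reads over the 0.1 µM libraries and 46 over the controls. Its SE drew on the spread of the 1 and 3 µM libraries, and DESeq2 and edgeR gave adjusted p-values of 0.154 and 0.278. It passed the filter for testing only through its values at 1 and 3 µM. The fit of only the 12 libraries compared therefore did not test it. Without fish 1 the log2 difference was 1.1 (limma adjusted p = 0.00753). Without fish 2, 3, 5 or 6, in contrast, the adjusted p was 0.228 to 0.62.

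**Figure D1:**
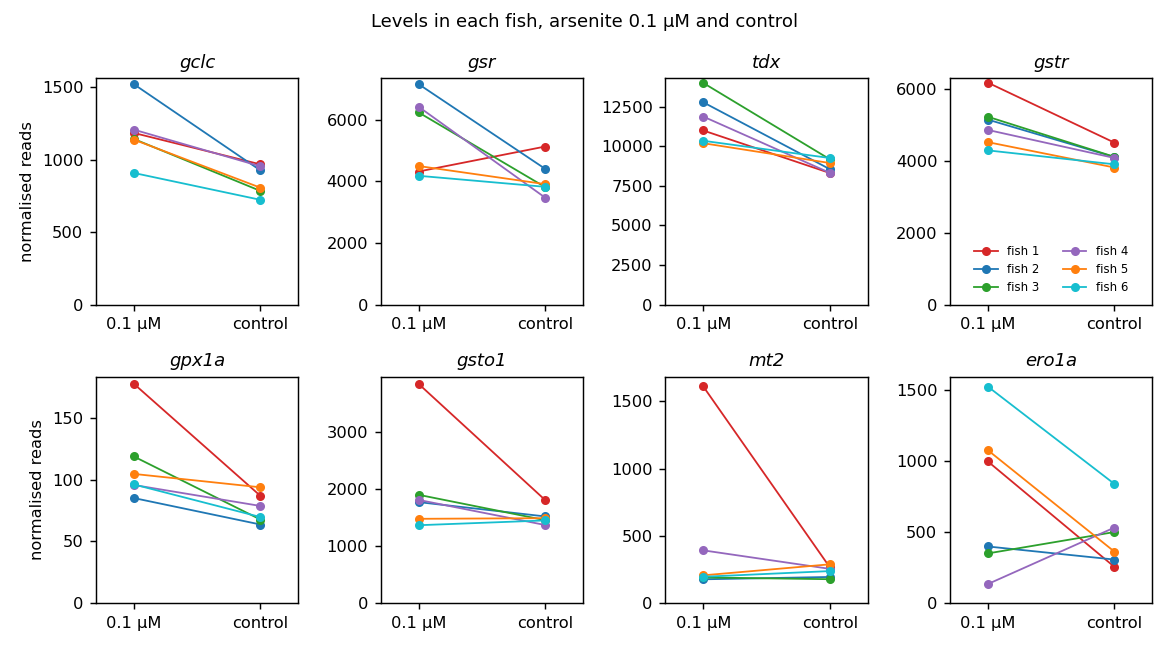
Normalised reads (vertical axes, from 0) of 8 genes at 0.1 µM arsenite (left) and in controls (right), with 1 line per fish. gclc, tdx, gstr and gpx1a were higher at 0.1 µM in all 6 fish, gsr in the 5 fish other than fish 1, gsto1 and mt2 stood highest in fish 1 at 0.1 µM, and ero1a was higher in 4 fish and lower in fish 3 and 4.

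Counting tools run on the whole reads recovered from the table gave other numbers of calls. DESeq2 called 10 genes, 0.0529% of those tested, all higher at 0.1 µM, with gclc among them, and edgeR called none at an adjusted p below 0.05 and 1355 at an unadjusted p below 0.05. Of the DESeq2 calls, 4 carry a symbol: gclc, tdx, gstr and vtg3. tdx stood at 10200.2 to 14009.5 (median 11445) normalised reads at 0.1 µM and 8316 to 9263 (median 8753) in controls, with no overlap between the groups (log2 difference 0.41 ± 0.086, DESeq2 adjusted p = 0.00107, limma 0.347). gstr, a glutathione S-transferase of the rho class found in fish, stood at 4288 to 6171 (median 5000.1) at 0.1 µM and 3811 to 4503 (median 4089.8) in controls, higher in 6 of 6 fish (log2 difference 0.29 ± 0.073, DESeq2 adjusted p = 0.0145, limma 0.451). vtg3, a vitellogenin and so a precursor of egg yolk, was in these male fish at 109, 62.3, 25.9, 19.3, 95.5 and 61.4 normalised reads at 0.1 µM, against 20.3, 18.4, 24.3, 31.9, 17.3 and 23.2 in controls. It was at least 2-fold higher in fish 1, 2, 5 and 6, about level in fish 3, and lower in fish 4. Its log2 difference was 1.21 ± 0.30 (DESeq2 adjusted p = 0.0217, limma 0.451).

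The other 6 DESeq2 calls are loci without a gene name. LOC106563565 had the tightest groups, at 938, 892, 812, 872, 805 and 810.1 normalised reads at 0.1 µM and 703, 635, 658, 669, 613 and 709 in controls, which did not overlap (log2 difference 0.36 ± 0.063, DESeq2 adjusted p = 2.3e-06, limma 0.0534). LOC106609239 was the most spread of the abundant ones, at 2925, 5709.7, 4572, 5173, 2748 and 1840.4 at 0.1 µM and 2578, 2125, 1989, 1548, 1793 and 1739 in controls, higher in all 6 fish but by 0.082 to 1.74 on the log2 scale. LOC106563564 was also higher in all 6 fish (0.59 ± 0.13), as was LOC106598296 (0.85 ± 0.20), while LOC106560908 (1.13 ± 0.25) and LOC106606596 (1.12 ± 0.27) were higher in 5 of 6. Salmon carry many duplicated genes, and the sources used here do not say how reads shared between copies were counted, so levels of single copies are uncertain.

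Without fish 1, limma called 7 genes, 0.0371% of those tested, all higher: gclc, zgc:114041, LOC106609239, LOC106563565, LOC106563564, LOC106598957 and LOC100136561. Without fish 4 it called 8, 0.0423%, all higher, with zgc:114041 the 1 gene shared with the fit of all fish; pim2, vtg3 and 5 loci without a gene name were the others. Without fish 2, 3, 5 or 6 it called none, with 961 to 1445 genes at an unadjusted p below 0.05. With the 0.1 µM library of fish 1 alone left out it called 4 (0.0212%), and without fish 1 DESeq2 called 20 (0.125%) and edgeR 6 (0.0318%). When limma weighted each library by its residuals it called 15 (0.0794%), 14 higher (0.0741%), gclc, gsr and tdx among them, and 1 lower (0.00529%), LOC106573506. Without fish as a term it called zgc:114041 alone (0.00529%), and with a stricter filter on low values 3 (0.0218%), all higher.

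Differences in the same direction in all 6 fish were found for 622 of 18899 genes, 3.29%, of which 331 were higher (1.75%) and 291 lower (1.54%). Among the 10004 genes with a mean of at least 100 normalised reads in the 12 libraries, the share was 3.51% (351 genes). In comparisons of the same fish on the arsenosugar plates it was 4.40% at 5 µM, 3.36% at 10 µM and 5.56% at 50 µM, and between the controls of the arsenite and the arsenosugar plates it was 5.81%. At 1 µM arsenite, against the same control libraries as here, it was 65.7%. The groups did not overlap for 19 genes, 0.101% of those tested, with 13 higher and 6 lower at 0.1 µM. Of these 19, tdx, zgc:114041, oga and brms1la carry a symbol.

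Of the genes with a symbol and a mean of at least 50 normalised reads, the ones with the smallest p among those higher in all 6 fish were, after gclc, tdx and gstr, bcl6, st2s2, aco1, oga and cssa13h11orf54. bcl6, a transcriptional repressor, stood at 135 to 267 (median 180.3) normalised reads at 0.1 µM and 112 to 158 (median 130.4) in controls (0.50 ± 0.12, limma adjusted p = 0.451). aco1, the cytosolic aconitase that doubles as an iron regulatory protein, stood at 2323 to 2885 (median 2602) at 0.1 µM and 1989 to 2397 (median 2195) in controls (0.23 ± 0.067, limma adjusted p = 0.626). oga, the enzyme that removes O-linked N-acetylglucosamine from proteins, stood at 77.01 to 96.6 (median 83.1) at 0.1 µM and 56.4 to 74.5 (median 65.1) in controls, with no overlap (0.36 ± 0.11, limma adjusted p = 0.626). None of these passed the test, and st2s2 (0.35 ± 0.10) and cssa13h11orf54 (0.28 ± 0.088) had overlapping groups.

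By the same rule, those with the smallest p among the genes lower in all 6 fish were hexim, gpc4, i2b2a, sap30bp, gpr137ba, slc26a6.1, pp12c and tars2, with log2 differences of -0.52 to -0.23 and limma adjusted p-values of 0.451 to 0.626. hexim, an inhibitor of the elongation factor P-TEFb, stood at 83.4 to 130.1 (median 107) normalised reads at 0.1 µM and 115 to 165 (median 131) in controls (-0.38 ± 0.094). gpc4, a cell surface heparan sulphate proteoglycan, stood at 598 to 799 (median 655) at 0.1 µM and 724 to 848 (median 777) in controls (-0.23 ± 0.071). tars2, the mitochondrial threonyl-tRNA synthetase, stood at 29.4 to 133 (median 106) at 0.1 µM and 100.4 to 145.7 (median 131) in controls (-0.52 ± 0.19), with fish 1 at 0.1 µM the lowest of all. Without fish 1 the difference of tars2 was -0.24, that of pp12c -0.21 against -0.39 ± 0.14 with all fish, and that of slc26a6.1 -0.19 against -0.31 ± 0.11 with all fish.

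Of 7 genes that make and recycle glutathione, 6 had a higher mean at 0.1 µM, but 3 with library totals in place of the authors' scaling. At an unadjusted p below 0.05 there were 2, against 7.79% of all genes, and 1, gclc, was called, against 0.0106% of all genes. The median log2 difference was 0.092, and 0.25 without fish 1, beside -0.0025 and 0.0074 for all genes tested, and with library totals it was -0.013, beside -0.11 for all genes. Fish by fish, the median of the 7 genes was -0.25, 0.34, 0.18, 0.26, 0.20 and 0.13 in fish 1 to 6, so it was below 0 in fish 1 and above it in the other 5.

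gsr, glutathione reductase, stood at 4314, 7148, 6232, 6416, 4492 and 4176 normalised reads at 0.1 µM, against 5124, 4402, 3809, 3468, 3905 and 3817 in controls of fish 1 to 6. In fish 2, 3 and 4 the values at 0.1 µM were above all controls, and in fish 1 the order was turned round. The log2 difference was 0.40 ± 0.12 with all fish (limma adjusted p = 0.626) and 0.53 without fish 1 (limma 0.0606, DESeq2 0.00122).

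The other 5 members were closer to 0. tkt and pgd, of the pentose phosphate pathway, were at 0.15 ± 0.083 and 0.092 ± 0.12, gss, glutathione synthetase, at 0.02 ± 0.10, and me1, a malic enzyme that makes NADPH, at 0.027 ± 0.17. chac1, which degrades glutathione, was at -0.0048 ± 0.13. With fish 1 left out, pgd and me1 were at 0.25 each and gss at 0.12.

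**Figure D2:**
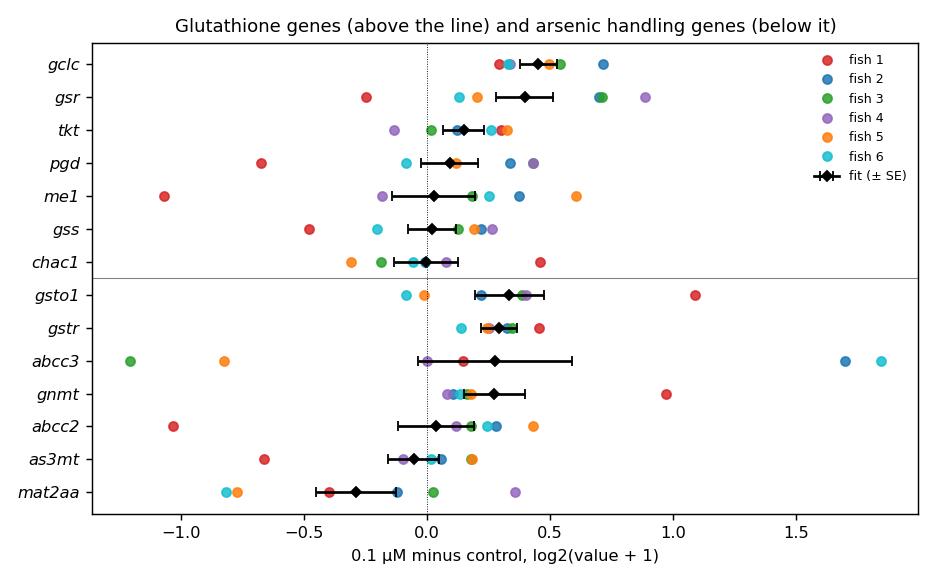
Differences of 0.1 µM minus control (horizontal axis, log2(value + 1)) for 7 genes of glutathione synthesis and recycling above the line and 7 of arsenic handling below it, with 1 coloured point per fish and a black diamond with its SE for the fitted value over the 6 fish. The points of gclc lie between 0.29 and 0.72 and those of gstr between 0.14 and 0.46, while abcc3 runs from -1.21 to 1.85.

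Of 13 measured genes of NRF2 and peroxide defence matched by symbol, 8 were higher and 5 lower, and none was called by limma or DESeq2. Genes of such function that carry other symbols or only a locus name are not among the 13. At an unadjusted p below 0.05 there was 1, against 7.79% of all genes. The median log2 difference of the 13 was 0.036, and 0.050 without fish 1. nfe2l2a, which encodes NRF2, and keap1a, its repressor, were at -0.04 ± 0.11 and 0.10 ± 0.11, and srxn1, sulfiredoxin, at 0.042 ± 0.18. gpx1a, a glutathione peroxidase, had the smallest p of the list and was higher in all 6 fish: it stood at 178, 85.1, 119, 95.7, 105 and 96.2 normalised reads at 0.1 µM, against 86.9, 63.6, 67.7, 78.7, 93.9 and 69.7 in controls (0.52 ± 0.17, limma adjusted p = 0.626). txnb, a thioredoxin, was also higher in 6 of 6 fish (0.29 ± 0.15, and 0.16 without fish 1). sod1, the cytosolic superoxide dismutase, split fish 1 from the rest. It stood at 46.2, 245, 271, 214, 247 and 258 normalised reads at 0.1 µM, against 174, 183, 204, 161, 224 and 199 in controls, a paired difference of -1.89 in fish 1 and of 0.14 to 0.42 in the other 5. The fitted difference was -0.023 ± 0.22 with all fish and 0.35 without fish 1 (limma adjusted p = 0.106, DESeq2 0.0482).

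Of 7 genes of arsenic biotransformation and transport, 5 were higher, with a median of 0.27 and of 0.18 without fish 1. At an unadjusted p below 0.05 there were 3, against 7.79% of all genes. None of the 7 was called by limma, and 1, gstr, by DESeq2. as3mt, the methyltransferase that converts arsenite to methylated arsenic, was at -0.055 ± 0.11, with 618 normalised reads at 0.1 µM and 628 in controls on average. gsto1, an omega-class glutathione transferase known in mammals to reduce methylated arsenic, stood at 3846, 1769.7, 1898, 1809, 1477 and 1364 at 0.1 µM, against 1807, 1518, 1453, 1368, 1488 and 1448 in controls. Its difference was 1.09 in fish 1 and -0.086 to 0.40 in the others (0.33 ± 0.14 with all fish, limma adjusted p = 0.626; 0.18 without fish 1). gnmt, glycine N-methyltransferase, which consumes S-adenosylmethionine, was higher in 6 of 6 fish, by 0.97 in fish 1 and 0.079 to 0.18 in the others (0.27 ± 0.12, and 0.13 without fish 1). abcc2, an exporter of glutathione conjugates, was lower in fish 1, with a difference of -1.03, and higher in the other 5 (0.036 ± 0.15; 0.25 without fish 1). abcc3, a related exporter, had about 5 normalised reads per library, too few to compare fish.

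Metal genes varied without a common direction. Of 7 measured, 3 were higher and none was called by limma or DESeq2, with a median of -0.018. At an unadjusted p below 0.05 there was 1, against 7.79% of all genes. mt2, a metallothionein, which binds metals through its cysteines, stood at 1612, 176, 189, 391, 205 and 195 normalised reads at 0.1 µM, against 265, 193, 177, 254, 287 and 237 in controls. It was higher in fish 1, by 2.60 on the log2 scale, and at -0.48 to 0.62 in the others, so the fitted difference was 0.40 ± 0.30 with fish 1 and -0.035 without it. tfr1a, the transferrin receptor, was higher in 6 of 6 fish (0.22 ± 0.084, limma adjusted p = 0.626), by 0.0018 in fish 2 and 0.60 in fish 1. hamp, hepcidin, was at 0.27 ± 0.19, and at -0.029 without fish 1.

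Differences were small over all genes. At least 1.5-fold, 109 genes were higher and 95 lower, 1.08% of those tested, and at least 2-fold 7 and 3, beside a median SE of 0.137 on the log2 scale. Without fish 1 these counts were 58 and 39 at 1.5-fold and 8 and 0 at 2-fold, with a median SE of 0.118. Of the 1273 genes with a mean of at least 1000 normalised reads, none reached 2-fold and 66, 5.18%, moved the same way in all 6 fish. Dividing by library totals in place of the authors' size factors moved the median of all genes to -0.11, and then 201 genes were higher and 2089 lower at an unadjusted p below 0.05. Differences above are relative to the authors' scaling. With library totals, 4 of 13 genes of NRF2 and peroxide defence had a higher mean, 4 of 7 of arsenic handling and 3 of 7 metal genes.

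The fish differed in the spread of their differences. Their average difference depends on the authors' scaling of each library, so it is not set against the spread. Over the 10004 genes, the SD of the paired log2 difference was 0.798 in fish 1, 0.173 in fish 2, 0.191 in fish 3, 0.271 in fish 4, 0.301 in fish 5 and 0.275 in fish 6. Counting error alone gave 0.155 in fish 1 and 0.0950 to 0.139 in the others. In fish 1, 1904 of these genes, 19.03%, differed at least 2-fold, 852 higher and 1052 lower, against 4 to 84 genes in any other fish. Fish 1 was thus the most spread and fish 2 the least, and fish 4 to 6 lay between. The same fish on the arsenosugar plates at 5 µM had SDs of 0.162 to 0.286, of which 0.286 was fish 1. With all 12 libraries thinned to 8.79 M reads, the SD of fish 1 was 0.801 and those of the others 0.197 to 0.313. That number is the depth of the fish 1 library at 0.1 µM, so thinning does not show what more reads in it would give.

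**Figure D3:**
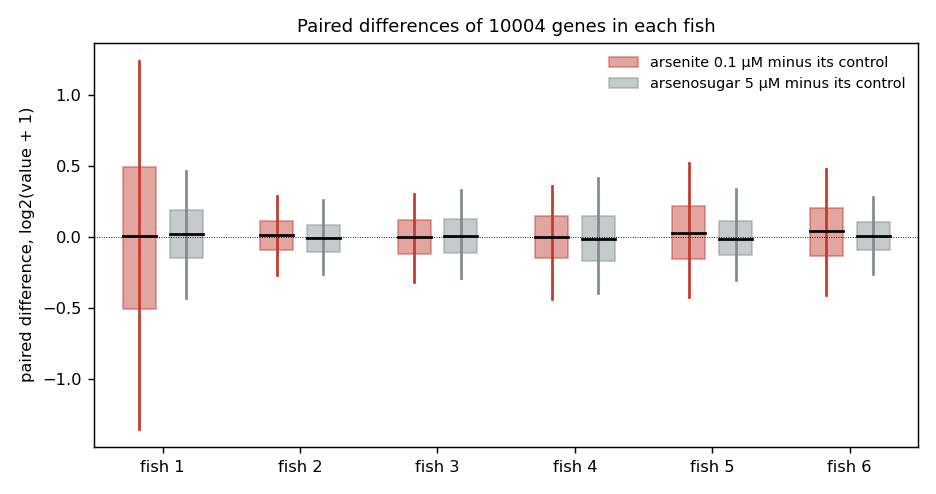
Paired differences (vertical axis, log2(value + 1)) of 10004 genes in each fish, for 0.1 µM arsenite minus its control and for 5 µM arsenosugar minus its own control. Boxes span the 25th to 75th percentiles, lines the 5th to 95th, and black bars the medians; fish 1 at 0.1 µM arsenite has the longest box and line of the 12.

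The levels themselves were more uneven between fish at 0.1 µM. The SD over 6 fish had a median over genes of 0.309 at 0.1 µM and 0.156 in the controls, against 0.152 to 0.175 in the 1 and 3 µM arsenite groups and the arsenosugar groups up to 50 µM with their control. It was wider at 0.1 µM than in controls for 88.2% of genes, and, without fish 1, for 70.9% (median SD 0.194 at 0.1 µM and 0.150 in controls).

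Among genes with a symbol and a mean of at least 100 normalised reads, those of fish 1 farthest from the other fish were gpatch1, cct2 and pigo, each lower. cct2, a subunit of the cytosolic chaperonin, stood at 15.4 normalised reads at 0.1 µM and 179 in the control of fish 1, pigo, of the synthesis of GPI anchors, at 11.2 at 0.1 µM and 125 in its control, and gpatch1 at 12.6 at 0.1 µM and 153 in its control. Higher in fish 1 were, besides mt2 and gsto1, rbp4, the retinol carrier of plasma (18721 at 0.1 µM and 9680.2 in its control), elovl2, an elongase of long fatty acids (1777 at 0.1 µM and 479.9 in its control), and cd68 (6111 at 0.1 µM and 3032 in its control). The differences of fish 1 ran with the length of the gene. In the 10% of genes with the shortest span (median 2636 bases) their median was 0.40, and in the 10% with the longest (median 95127 bases) it was -0.11, while in the other 5 fish no such class had a median outside -0.071 to 0.091. The parts of depth and of gene length in the spread of fish 1 were not tested. The labels' protocols describe RNA integrity as good outside the 250 µM arsenosugar group, and give no value per library.

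**Figure D4:**
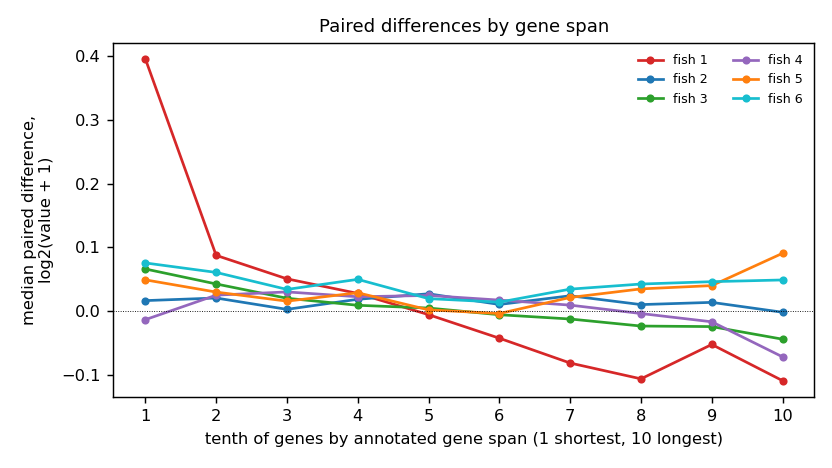
Median paired difference (vertical axis, log2(value + 1)) of genes in 10 equal classes of annotated gene span (horizontal axis, 1 shortest to 10 longest), with 1 line per fish. The line of fish 1 starts at 0.40 and ends at -0.11, and those of the other fish stay between -0.071 and 0.091.

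A set of hypoxia-response genes differed in opposite directions between fish. Most of these genes are targets of the oxygen-sensitive factor HIF, while hif1ab encodes a subunit of HIF and hif1an an inhibitor of it. The list was drawn up after their values were seen, so it is a description. Over its 12 members with at least 100 normalised reads, the median paired difference was 1.32, 0.16, -0.23, -1.21, 1.16 and 0.62 in fish 1 to 6: higher in 10 of 12 genes in fish 1, 5 and 6, and lower in 9 of 12 in fish 4 and 10 of 12 in fish 3. ero1a, an oxidase of the endoplasmic reticulum, stood at 996, 397, 349, 133, 1075 and 1523 normalised reads at 0.1 µM, against 253, 305, 499, 531, 361 and 837 in controls of fish 1 to 6. Fish 4 was thus the lowest of the 6 at 0.1 µM and the second highest in the controls. vegfab, a vascular growth factor, stood at 801, 501, 424, 270.1, 930.3 and 1286 at 0.1 µM, against 269, 351, 435, 655, 409 and 837 in controls, and ndrg1a had paired differences of 0.91, 0.29, -0.26, -1.42, 1.2 and 0.78. slc6a8, the creatine transporter and a member of the list, was higher in fish 1, 2, 5 and 6 and lower in fish 3 and 4. So was aldoaa, an aldolase of glycolysis outside the list. mxd4, a partner of the MAX factor and also outside it, was lower in fish 4 only. The fitted differences of slc6a8, aldoaa and mxd4 over all fish were 0.33 ± 0.28, 0.35 ± 0.29 and 0.52 ± 0.34, none of them called.

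No member of the 20 measured hypoxia-response genes was called by limma or DESeq2, 18 had a higher mean, of which 3 were at an unadjusted p below 0.05, and 2 a lower one, of which igfbp-1b1 was at such a p. Of all 18899 genes tested, 9336 had a higher mean and 7.79% were at such a p. Since the list was drawn up after its values were seen, these counts do not test it. The median of the 20 genes was 0.23 with fish 1 and 0.13 without it. For the same 12 genes, the arsenite control minus the arsenosugar control of the same fish had a median of 1.00 in fish 4 and -0.28 to 0.37 in the others, at 0.25 in fish 5 and 0.067 in fish 6. Medians of the 12 genes also differed in sign between fish on the arsenosugar plates, from -0.21 in fish 2 to 0.64 in fish 4 at 5 µM, from -0.48 in fish 2 to 0.62 in fish 1 at 10 µM and from -0.58 in fish 6 to 0.90 in fish 3 at 50 µM, each against the arsenosugar control. At 1 µM arsenite, against the same control libraries as here, the medians were 0.76, -0.51, 0.0012, -0.49, 0.031 and -0.32 in fish 1 to 6. At 3 µM they were 0.57, -0.46, -0.069, -0.78, 0.11 and -0.45. These comparisons share their controls with that at 0.1 µM, so they are not independent of it. In fish 4, ero1a stood at 133 at 0.1 µM, 531 in the arsenite control and 235 in the arsenosugar control.

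**Figure D5:**
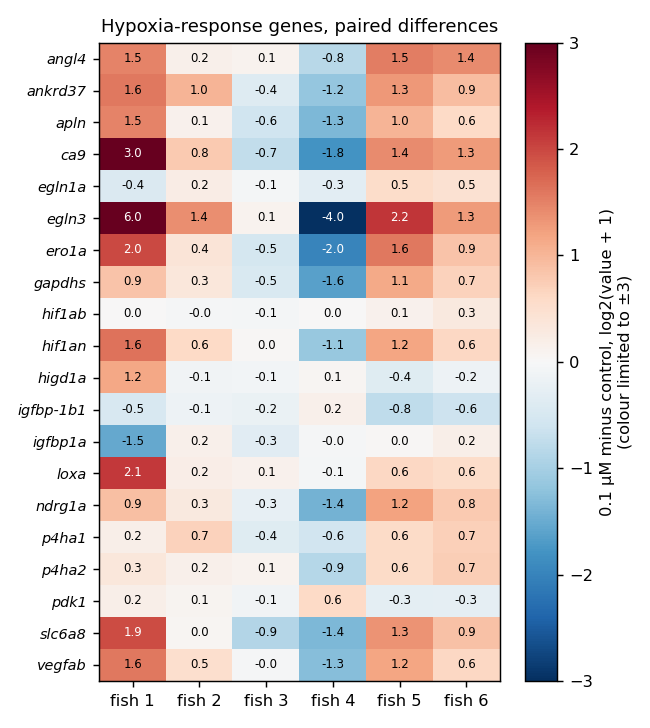
Paired differences of 0.1 µM minus control, log2(value + 1), for 20 hypoxia-response genes (rows) in the 6 fish (columns), red where higher at 0.1 µM and blue where lower. Most genes are red in fish 1, 5 and 6 and blue in fish 4; egln3 had no reads in the control of fish 1, so its value there rests on the added 1.

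Across the 10004 genes the differences of fish 4 ran opposite to those of fish 5 (r = -0.64) and fish 6 (r = -0.47), and those of fish 5 and 6 ran together (r = 0.58). The other pairs of fish lay between -0.31 and 0.30. These correlations are over genes, which are not independent, within fish that share no library. Set against the mean differences at 1 and 3 µM of the other 5 fish, with which it shares no library, the 0.1 µM difference of a fish had r from -0.15 to 0.15 over the same genes.

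Some further genes lay far from the median of the other fish in a given fish, and several also moved in other fish. In fish 2, eif3m, of a translation initiation factor, was at 234 normalised reads at 0.1 µM and 504 in its control, and thrb, a thyroid hormone receptor, at 102 at 0.1 µM and 148 in its control. In fish 3, wnt5b, a secreted signal, was at 253 at 0.1 µM and 88.8 in its control. In fish 5, cct2 was at 159 at 0.1 µM and 650.4 in its control, far above the 148 to 206 of the other controls, and emid1 was at 127 at 0.1 µM and 55.98 in its control. In fish 6, nubp1, an assembly factor of iron-sulphur clusters, was at 426 at 0.1 µM and 126 in its control, and ud2a2, a glucuronosyltransferase, at 213 at 0.1 µM and 135 in its control. angl4, a secreted inhibitor of lipoprotein lipase and a member of the hypoxia list, was at 887 in fish 5 and 1460.3 in fish 6 at 0.1 µM, against 308 and 546 in their controls. Its paired difference was 1.52 in fish 5, 1.42 in fish 6 and also 1.49 in fish 1. In fish 2, 3 and 4 it was 0.16, 0.11 and -0.83.

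Gene groups of other pathways held no call by limma or DESeq2. Over all 18899 genes tested, 9336 had a higher mean. At an unadjusted p below 0.05 there were 7.79% of all genes, 4.38% higher and 3.42% lower. All 11 measured genes of fatty acid synthesis had a higher mean, but 6 with library totals, and 4 were at an unadjusted p below 0.05, with a median log2 difference of 0.23, and of 0.17 without fish 1. By fish this median was 0.40, 0.048, 0.04, -0.13, 0.36 and 0.26, below 0 in fish 4. elovl6, an elongase, stood at 1650.3 to 2722 (median 2087) at 0.1 µM and 1488 to 2169 (median 1823) in controls (0.24 ± 0.094, limma adjusted p = 0.626), and elovl2 was at 0.46 ± 0.17 with fish 1 and 0.18 without it. Of 12 genes of sterol synthesis, 9 were higher with all fish and 3 without fish 1, and the medians by fish lay between -0.52 in fish 4 and 0.50 in fish 1. sc5d was at 0.18 ± 0.09 and srebf2, the regulator of the pathway, at 0.11 ± 0.11. The list of 44 cytosolic ribosomal protein genes was added after their values were seen, so its counts are a description. Of these genes, 40 had a higher mean and 12 were at an unadjusted p below 0.05. Their median was 0.14, with rpl27 at 0.33 ± 0.14 and rpl27a at 0.24 ± 0.10. Leaving out fish 1 brought rpl27 to 0.12 and rpl27a to 0.14. Without fish 1 all 44 had a higher mean, with a median of 0.11. Dividing by library totals brought the median to 0.033 with all fish, beside -0.11 for all genes. By fish the median was 0.21, 0.062, 0.17, -0.059, 0.19 and 0.20, below 0 in fish 4, and 1 of the 44 was higher in all 6 fish. In fish 1 the genes ran from -1.94 for rpl9 to 3.12 for rps29.

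Stress pathways that inorganic arsenic is known to engage had list medians near 0 over all fish, with members in both directions and fish 1 farther from 0. The 12 heat shock and folding genes had a median of -0.052 (-0.48 in fish 1), none at an unadjusted p below 0.05, with hspa8 and hsp90ab1, the abundant chaperones, at 0.0069 ± 0.083 and -0.065 ± 0.10, and dnaja and dnajb1a, co-chaperones, at -0.25 ± 0.14 and -0.23 ± 0.13. Leaving out fish 1 brought dnaja to -0.082 and dnajb1a to -0.017. The 19 genes of ER stress and the amino acid response had a median of 0.079 (0.29 in fish 1), with asns and psat1 at an unadjusted p below 0.05. asns, asparagine synthetase, stood at 559 to 667 (median 630.2) at 0.1 µM and 491 to 613 (median 554) in controls and was higher in 6 of 6 fish (0.18 ± 0.064, limma adjusted p = 0.626), and psat1, of serine synthesis, was at 0.20 ± 0.077. The 10 DNA damage and p53 genes had a median of 0.068 (0.79 in fish 1), with sesn1 and bbc3 at an unadjusted p below 0.05. sesn1, a sestrin, stood at 1137, 874, 745, 1121, 458 and 293 at 0.1 µM, against 1691, 1235, 979, 940.3, 794 and 732 in controls, lower in every fish but fish 4 (-0.55 ± 0.16, limma adjusted p = 0.626), and bbc3, a killer protein of the BCL2 family, was at 0.58 ± 0.23.

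Among 14 cell cycle genes 5 were higher and 9 lower (median -0.067; tk1 0.51 ± 0.25, top2a -0.31 ± 0.16), and among 7 interferon genes 3 and 4 (median -0.063; irf3 -0.23 ± 0.11, lower in 6 of 6 fish, and cmpk2 -0.31 ± 0.17). The 10 genes of glycolysis and gluconeogenesis had a median of 0.055, with gpia at 0.21 ± 0.15 and pck1 at -0.27 ± 0.18. The 9 acute phase and inflammation genes had a median of 0.12. il8, a chemokine, was the farthest from 0 at 0.88 ± 0.30, on 15.4 or fewer normalised reads in 11 of the 12 libraries, and crp was at 0.27 ± 0.13 with fish 1 and 0.093 without it. The 2 genes of xenobiotic metabolism, ephx1 and tiparp, were at 0.057 ± 0.18 and 0.22 ± 0.19. Of the 14 hepatocyte genes 8 were higher (median 0.039), with tat, tyrosine aminotransferase, lower in 6 of 6 fish (-0.14 ± 0.074). Among markers of other cells the farthest from 0 were jag1b and kdr. jag1b, a Notch ligand counted as a cholangiocyte marker, was higher in 6 of 6 fish (0.59 ± 0.13, limma adjusted p = 0.451). The other cholangiocyte marker, anxa4, was at -0.047 ± 0.098. kdr, an endothelial receptor, was at 0.61 ± 0.33, on means of 23.7 normalised reads at 0.1 µM and 14.7 in controls. Leaving out fish 1 brought kdr to 0.31. Of the other endothelial markers, stab1 was at 0.35 ± 0.20 and esamb at 0.0020 ± 0.087. fn1a was at 0.36 ± 0.21 and timp2 at 0.16 ± 0.12.

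The genes that limma called at 0.1 µM with all fish were also measured at the higher concentrations, against the same control libraries. Over control, 0.1, 1 and 3 µM, gclc averaged 861 ± 102, 1184 ± 197, 3114 ± 405 and 1763 ± 209 normalised reads (SD, n = 6 fish each). zgc:114041 averaged 5.83 ± 1.72, 12.6 ± 2.63, 124 ± 24.6 and 431 ± 80.6, and was tested only because of its values at 1 and 3 µM. Its rise there was therefore a condition of its call. gclc was thus highest at 1 µM and zgc:114041 at 3 µM. Of the DESeq2 calls other than gclc, tdx, gstr, vtg3, LOC106563565 and LOC106609239 averaged above control at both 1 and 3 µM. LOC106563564 was above control at 1 µM and below it at 3 µM, and LOC106560908 was above it at 1 µM and level at 3 µM. LOC106598296 averaged 29.3, 58.0, 12.6 and 18.5 normalised reads in the same order of groups, and LOC106606596 34.6, 80.7, 8.68 and 17.9.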

How the data were processed

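RNA was sequenced from 54 libraries of salmon hepatocytes, 12 of which are compared here. HISAT2, Subread with its featureCounts and DESeq2 1.40.2 are named in the submitters' processing notes; the sources used here name no build, annotation or strand setting. Deposited values are a read signal per gene, namely counts scaled by the authors with 1 size factor per library. Dividing by the smallest step of each column returned whole reads for 100% of the values of every library within 0.1 reads (largest deviation 0.0931). These reads gave depth and counting error and entered DESeq2 1.42.0 and edgeR 4.0.16 as alternatives. Reads without molecular identifiers are not independent molecules.

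Differences were tested on log2(value + 1) by limma 3.58.1 (trend) in R 4.3.3, for genes that reached a value of 10 in 6 or more of the 24 arsenite libraries, which share 1 estimate of spread. Fold changes on this scale understate those of low genes. Fish was a term, because every fish gave cells to every group. Libraries of the same fish correlated in their deviations from the group means with a median r of 0.32 over 10004 genes (-0.21 to 0.72, lowest in fish 4). Between fish the median was -0.070 (-0.56 to 0.40), so the ranges overlapped. Tests were two-sided with Benjamini-Hochberg adjustment over all genes. Spread per fish was the SD of the paired difference over genes with a mean of at least 100. Each group mean ± SD is over 6 fish, and SEs are those of the fit. P-values are set against a spread between cultures of these fish that is pooled over the 24 arsenite libraries unless stated otherwise. Over the 10004 genes the median SD over fish was 0.309 at 0.1 µM, 0.159 at 1 µM and 0.157 at 3 µM. The pooled spread can therefore understate that at 0.1 µM.

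Names came from RefSeq's gene table of Ssal_v3.1: 18900 of 18901 identifiers were found, 6224 with a symbol and 12676 with a locus name only, so lists were matched by symbol. Gene span is from the same table, of a build that may differ from the authors'. Genes named are those called, the 8 higher and 8 lower with a symbol, a mean of at least 50 and the smallest p among those consistent in 6 fish, members of the glutathione, NRF2, arsenic and metal lists at p below 0.05 or of the widest spread, the 3 genes that most set each fish apart, the 6 with the most variable difference, the DESeq2 calls, and 2 members of each other list. Values for gss, nfe2l2a and others outside this rule were chosen as the known core of their list. The genes that set each fish apart and those of most variable difference were sought among genes with a symbol and a mean of at least 100. The members and lists were chosen with earlier results of these data known, and the hypoxia and ribosomal protein lists were added after seeing these values. Of the glutathione list, 1 gene is not reported here and was left out of its counts. The fit was tested on simulated data. Alternatives changed scaling, pseudocount, filter, tool, block, library weights and the fish included.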

Additional observations from a re-analysis of the deposited data

Results flagged for a closer look

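The highest or lowest of 6 values was looked at in 161 sets of named-gene levels or spreads, and 23 had a gap to the nearest value above Dixon's 95% critical value for 6 samples, as a share of the range; chance flags about 1 in 20 sets chosen without regard to their values, a rate that does not hold here, since many of these genes were named for their wide spread or for setting a fish apart. The spread of the paired differences was one, with fish 1 at 0.798. At 0.1 µM, fish 1 stood above the other 5 in gpx1a (178 normalised reads), gsto1 (3846), gnmt (22815), mt2 (1612), eif3m (664), rbp4 (18721), elovl2 (1777), rpl27 (6596), crp (2885), cmpk2 (92.4) and cd68 (6111). It stood below them in abcc2 (1536), sod1 (46.2) and anxa4 (2042). In fish 2, i2b2a was the highest of the 6 at 0.1 µM (409). In the controls, fish 1 was above the others in gsto1 (1807), cmpk2 (151), dnajb1a (296) and ephx1 (40.7), fish 3 in crp (1572), fish 5 in cct2 (650.4) and fish 6 in tiparp (252).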

How the results depend on the processing

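The count of called genes, 2 with limma on all fish, was 0 in the fit of only the 12 libraries, with library totals, with TMM factors, with a pseudocount of 8 and with edgeR, and 10 with DESeq2 on the paired design. Without the fish block (no pairing) it was 1. Leaving out each fish in turn gave 0 to 8. Of the alternatives added after seeing the data, leaving out the 0.1 µM library of fish 1 gave 4, limma's library weights 15, and leaving out fish 1 gave 20 with DESeq2, 6 with edgeR and 0 in the fit of its own 10 libraries. The cause was not tested, except that the fit of 12 libraries drops 12 others, on whose spread the SEs otherwise draw. Without those others zgc:114041 also fell below the filter and was not tested. The spread per fish moved little with scaling, pseudocount, abundance or depth. Over 80 named genes and all alternatives, 1532 of 1657 values kept direction and call, 33 gained and 23 lost the call and 69 changed sign. Only gclc and zgc:114041 had a call to lose, so all 23 losses were theirs. Most values that were kept belong to genes without a call. With library totals the log2 differences that changed sign were -0.069 for abcc2, -0.079 for me1, -0.069 for emid1, -0.035 for rhag and -0.043 for ephx1. sod1 was at 0.12 with edgeR and 0.10 with DESeq2. With limma's library weights they were 0.32 for sod1, -0.064 for thrb, 0.17 for wnt5b, -0.10 for mpeg1.1, 0.051 for anxa4 and -0.029 for rhag, with the 0.1 µM library of fish 1 left out -0.057 for mt2, 0.33 for sod1, 0.058 for gpatch1, 0.21 for wnt5b, 0.085 for ud2a2, -0.0076 for mpeg1.1, 0.067 for anxa4 and -0.020 for rhag, in the 12 libraries without fish 1 -0.035 for mt2, 0.35 for sod1, 0.10 for gpatch1, 0.22 for wnt5b, 0.046 for ud2a2, -0.016 for srebf2, 0.063 for anxa4 and -0.046 for rhag, with DESeq2 without fish 1 -0.00057 for mt2, 0.35 for sod1, 0.11 for gpatch1, 0.16 for wnt5b, 0.063 for ud2a2, -0.013 for srebf2, 0.060 for anxa4 and -0.043 for rhag, and with edgeR without fish 1 0.35 for sod1, 0.11 for gpatch1, 0.13 for wnt5b, 0.066 for ud2a2, -0.017 for srebf2, 0.057 for anxa4 and -0.055 for rhag. Leaving out each fish in turn gave ranges of mt2 -0.035 to 0.58, abcc2 -0.043 to 0.25, me1 -0.089 to 0.25, sod1 -0.11 to 0.35, gpatch1 -0.69 to 0.10, wnt5b -0.61 to 0.22, nubp1 -0.11 to 0.44, eif3m -0.36 to 0.10, ud2a2 -0.22 to 0.046, emid1 -0.19 to 0.20, srebf2 -0.016 to 0.21, mpeg1.1 -0.012 to 0.30, anxa4 -0.12 to 0.063, rhag -0.046 to 0.18 and ephx1 -0.086 to 0.23. Depth limits genes with few reads, such as zgc:114041 and egln3.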
